A study of Homo sapiens with 12 samples.

Results

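The genes described here are 47 genes of the serum response factor (SRF) and actin cytoskeleton system, chosen by name out of the 58174 genes that each table lists. They comprise SRF and its coactivators (3 genes), actins (3), filament crosslinkers and adhesion proteins (7), subunits of non-muscle myosin II (6), proteins that bind along filaments (10), LIM domain adaptors (5), proteins of filament turnover (8) and genes that respond to SRF or to the coactivator YAP (5). The study lowered the RNA-binding protein IGF2BP1 by siRNA in cancer cell lines, asking which transcripts depend on it. Values came from poly-A-enriched, strand-specific, paired-end RNA sequencing of Hep-G2, a line from a human liver cancer, and BE(2)-C, a line from a human neuroblastoma. Each line was transfected with either a control siRNA (siC, the cel-miR-239b sequence) or a pool of siRNAs against IGF2BP1 (siI1), Hep-G2 receiving 15 nM and BE(2)-C 25 nM, and RNA was taken after 72 h. Each of the 4 groups had 3 libraries, which the study calls biological replicates, 12 libraries in all. Levels are FPKM, fragments per kilobase of gene length, scaled to the fragments mapped in the library with a further factor for each library. These factors ran from 0.9661 to 1.023 in Hep-G2 and from 0.9791 to 1.017 in BE(2)-C. The paper states normalization by trimmed mean of M-values (TMM). A gene was tested where its FPKM reached 0.1 in at least 3 of the 6 libraries of its line. In Hep-G2 this held for 45 members, as it did for 45 in BE(2)-C, and 43 passed in both lines. Recovered from the FPKM and gene lengths, the reads on genes ran from 13465944 to 15176939 in the Hep-G2 siC libraries and from 13398903 to 14858343 in the siI1 libraries. The BE(2)-C range was 12852988 to 14662575 with siC and 13649325 to 15721210 with siI1.

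The libraries carried the markers of the lines they are labelled as. All 8 hepatocyte-lineage markers were expressed in Hep-G2, led by albumin (ALB) at a mean of 4619 FPKM, while 6 of 7 neuroblastoma markers averaged under 0.1 FPKM there. All 7 neuroblastoma markers were expressed in BE(2)-C, led by MYCN at a mean of 1778 FPKM, and all 8 hepatocyte-lineage markers averaged under 0.1 FPKM. IGF2BP1 (ENSG00000159217), the siRNA target, stood at 48.5, 46.6 and 50.8 FPKM in the 3 Hep-G2 siC libraries and at 12.6, 10.7 and 10.7 in the siI1 libraries. Its BE(2)-C levels were 21.3, 20.6 and 21.6 FPKM with siC and 4.85, 4.75 and 4.87 with siI1. Every siI1 library lay below every siC library of its line, the siI1 mean being 23.3% of the siC mean for Hep-G2 and 22.8% for BE(2)-C. The log2 fold changes were -2.10 ± 0.079 (SE) and -2.11 ± 0.048 (SE), with adjusted p of 7.83e-06 and 1.48e-05 from limma. Each log2 fold change below is siI1 against siC on log2(FPKM + 0.1), and a gene counts as lower or higher where its adjusted p is under 0.05. That scale understates the change of genes with low FPKM.

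SRF binds DNA at CArG boxes and switches genes on together with partner proteins. Its myocardin-related coactivators, listed as MKL1 and MKL2, are held in the cytoplasm by monomeric actin and released when actin assembles into filaments, so that the state of the filaments feeds back on genes for actin and its binding proteins. The same filaments carry tension through myosin II and focal adhesions, and tension also acts on YAP, whose target genes overlap with those of SRF.

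RefSeq promoter windows of 300 bases on GRCh38.p14, 250 bases before and 50 after each gene's start, were found for 42 of the 47 members. ACTB, MYL9, TAGLN, PFN2 and CYR61 had none. A CArG box, searched on both strands by the motif of that name, occurred in 7 of the 42 windows (16.7%) and in 454 of all 35116 promoter windows (1.29%). Members were partly chosen as SRF targets, so this share is part of the choice. GGAATG, a motif read by the TEAD partners of YAP, or its reverse complement CATTCC occurred in 9 of 42 members (21.4%) and in 4928 of all windows (14.0%). Both motifs may share the GG that ends a CArG box. The members with GGAATG or CATTCC were FLNC, VCL, MYH9, MYH10, MYL12A, CALD1, PFN1, CTGF and ANKRD1. The stretches of 100 bases below hold each CArG box, and the repeated GGAATG of CTGF and ANKRD1, with the matched bases in capitals, and are shown because these genes recur in the results. All lie upstream of the RefSeq start that defines the window and run 5′ to 3′ on the gene's strand, and those of ACTG1 and TPM4 lie inside the longer genes of GENCODE 44. They are SRF (chr6:43171169-43171268, plus strand, matches starting 30 and 10 bases before the start), ACTG1 (chr17:81512839-81512938, minus strand, 94 bases before), FLNA (chrX:154374674-154374773, minus strand, 94 bases), TPM4 (chr19:16067320-16067419, plus strand, 173 bases), CNN2 (chr19:1026474-1026573, plus strand, 89 bases), FHL2 (chr2:105438560-105438659, minus strand, 101 bases) and AKAP12 (chr6:151239841-151239940, plus strand, 81 bases). GGAATG is marked in CTGF (chr6:131951452-131951551, minus strand, 169, 104 and 95 bases before the start) and ANKRD1 (chr10:90921209-90921308, minus strand, 220 and 128 bases). A match describes the letters only.
SRF: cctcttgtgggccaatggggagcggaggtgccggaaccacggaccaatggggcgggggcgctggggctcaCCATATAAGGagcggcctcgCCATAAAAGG
ACTG1: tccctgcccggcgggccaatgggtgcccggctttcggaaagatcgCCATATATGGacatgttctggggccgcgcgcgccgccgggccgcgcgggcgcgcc
FLNA: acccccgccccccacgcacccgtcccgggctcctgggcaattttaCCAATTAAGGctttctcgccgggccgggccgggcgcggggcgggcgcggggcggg
TPM4: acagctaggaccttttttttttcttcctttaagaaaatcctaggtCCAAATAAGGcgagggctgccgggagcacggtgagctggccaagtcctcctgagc
CNN2: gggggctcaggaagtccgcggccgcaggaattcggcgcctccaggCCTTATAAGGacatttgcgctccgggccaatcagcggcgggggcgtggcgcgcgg
FHL2: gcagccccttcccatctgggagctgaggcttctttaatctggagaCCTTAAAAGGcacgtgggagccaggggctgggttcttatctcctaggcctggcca
CTGF: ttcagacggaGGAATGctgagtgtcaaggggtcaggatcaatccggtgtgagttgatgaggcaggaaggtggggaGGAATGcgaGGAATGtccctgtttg
ANKRD1: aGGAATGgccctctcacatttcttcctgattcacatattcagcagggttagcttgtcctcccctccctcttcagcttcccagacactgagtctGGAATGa
AKAP12: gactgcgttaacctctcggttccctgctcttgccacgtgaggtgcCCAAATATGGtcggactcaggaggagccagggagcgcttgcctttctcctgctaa

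More members were lower than higher upon IGF2BP1 depletion in each line. In Hep-G2, 21 of 45 tested members were lower (46.7%) and 6 higher (13.3%), beside 23% lower and 21.9% higher among all 19436 tested genes and 30.5% lower and 25.3% higher among 12823 protein-coding genes. In BE(2)-C, 20 of 45 were lower (44.4%) and 6 higher (13.3%), beside 14.8% lower and 13.3% higher among all 18656 tested genes and 19.9% and 15.5% among 12600 protein-coding genes. AMOTL2 passed the BE(2)-C filter only through its siC libraries, so of the 2 directions only a lower call was open to it, and without such genes 19 of 44 members were lower (43.2%), beside 14.8% of 18381 genes. The members' median log2 fold change was -0.18 in Hep-G2 (all tested genes 0.0069, protein-coding genes -0.042) and -0.13 in BE(2)-C (all tested genes 0.016, protein-coding genes -0.015). Members together took 1.59% to 1.67% of all FPKM in the Hep-G2 siC libraries and 1.37% to 1.43% in the siI1 libraries. Their BE(2)-C share was 1.22% to 1.32% with siC and 1.10% to 1.11% with siI1. These shares did not overlap in either line. Summed without dividing, the members' FPKM did overlap in Hep-G2 (4007, 4406 and 4199 with siC, 3751, 4247 and 4277 with siI1). The FPKM of all genes rose there from between 252616 and 264612 to between 273699 and 300505, so the lower share in Hep-G2 mostly reflects the higher total. Counts by role or list below stand against the shares of all tested and protein-coding genes just given. Of the members, 10 were lower in both lines (SRF, MKL1, FLNA, MYH9, MYL12A, TPM3, PDLIM7, LIMK1, CAP1 and AKAP12), 1 was higher in both (CNN3) and 5 were called in opposite directions. A further 11 were called in Hep-G2 alone, 10 in BE(2)-C alone and 10 in neither, where CTGF, ANKRD1, FLNC and FHL1 were tested in a single line. Of the 43 tested in both lines, 23.3% were lower in both, 2.33% higher in both and 11.6% called in opposite directions, beside 8.91%, 4.94% and 7.52% of 11084 protein-coding genes and 6.6%, 4.34% and 5.82% of all 15362 genes tested in both. Those called in Hep-G2 alone were 9 of the 43 (20.9%, protein-coding genes 34.2%), those in BE(2)-C alone 8 (18.6%, protein-coding genes 14%) and those in neither 10 (23.3%, protein-coding genes 30.5%). SRF and LIMK1 belong to the study's own list of genes lowered in all its lines, drawn partly from these tables, so their direction is not independent evidence. In bulk RNA, fewer cells expressing a gene and less RNA per cell cannot be told apart.

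The counts depended in part on scaling and on single libraries. When each Hep-G2 library was scaled to an equal sum of FPKM, the median of all genes moved by -0.153, calls over all genes went from 4463 lower and 4250 higher to 5835 and 3211, and 29 members were lower. The 8 further members were ACTB, ACTN4, MYL9, CFL1, PFN1, PFN2, CYR61 and AMOTL2. Hep-G2 siI1 replicate 1 stood apart by gene length. Its protein-coding genes under 2000 nt had a median deviation of -0.237 from the mean of the other siI1 libraries and genes of 6000 nt or more 0.136, while the other siI1 libraries had 0.102 and 0.153 for short genes. Without it, 10 members were higher in Hep-G2 and 21 lower, the additions being ACTG1 (adjusted p = 0.0239), MYL12B (0.0262), CNN2 (0.0462) and WDR1 (0.00942). In BE(2)-C the members called higher went from 6 to 3 without siI1 replicate 1 and to 4 without siI1 replicate 2 or replicate 3.

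**Figure D1:**
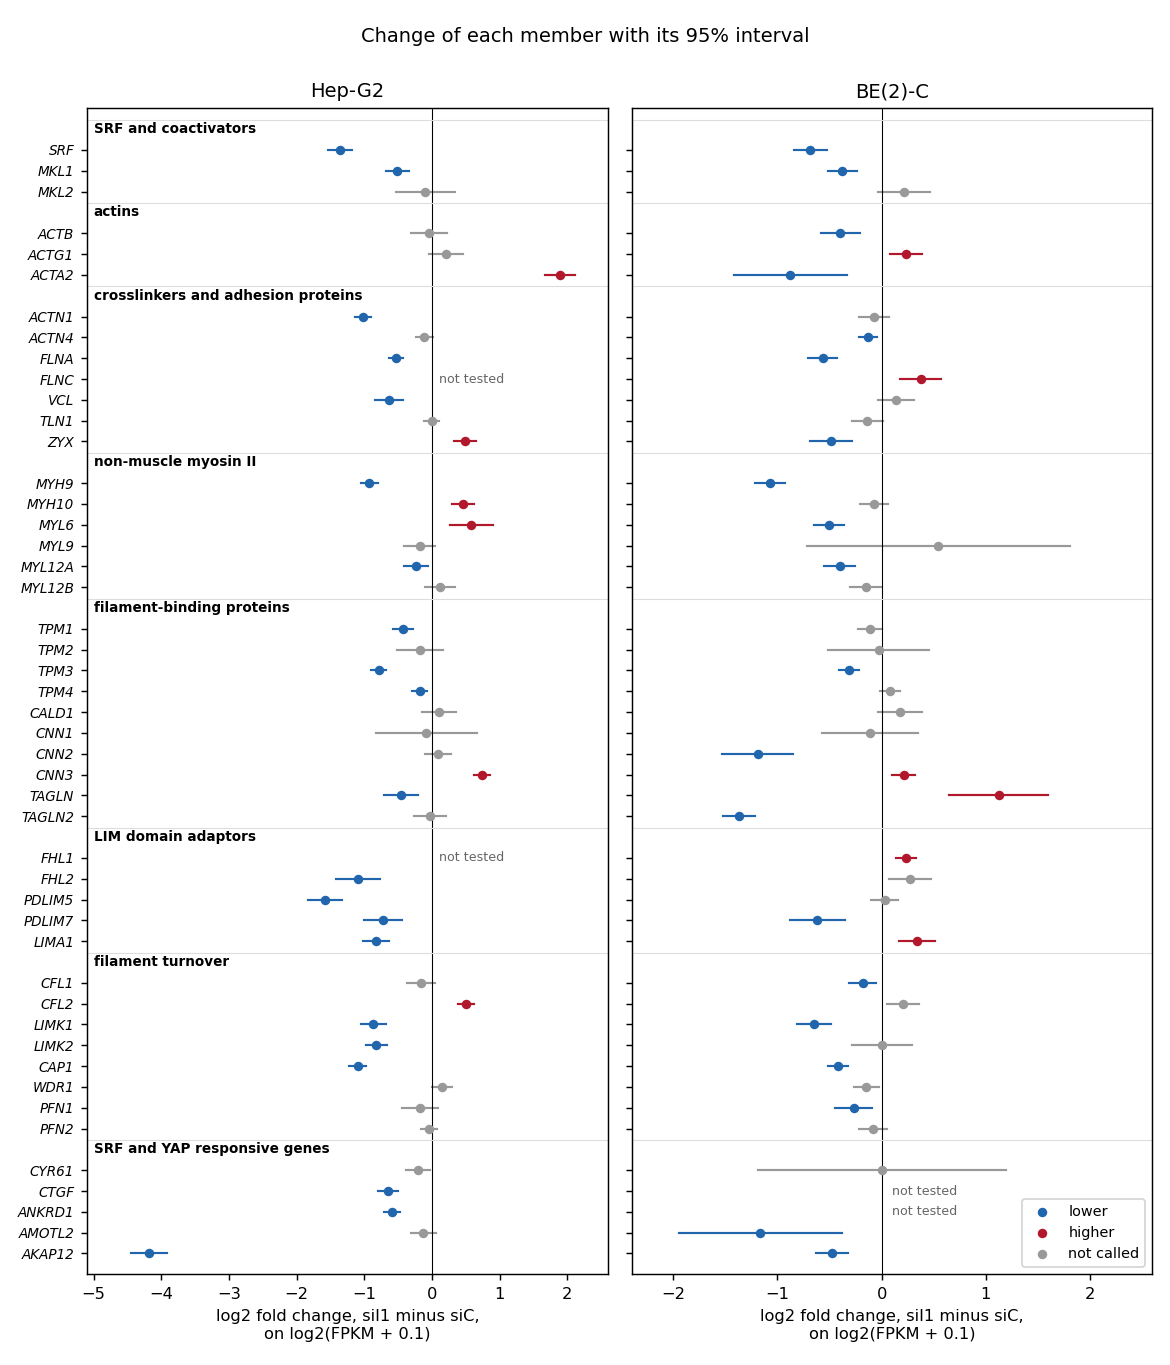
Log2 fold change (siI1 minus siC, on log2(FPKM + 0.1)) of each member by role in Hep-G2 (left) and BE(2)-C (right), with 95% intervals and colours for lower, higher and not called. In Hep-G2 21 members lie on the lower side with a call and in BE(2)-C 20, and 29 are lower in Hep-G2 with libraries scaled to equal sums of FPKM.

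SRF and its coactivators. SRF (ENSG00000112658, chr6:43171269-43181506, plus strand, in GENCODE 44 on GRCh38) is the DNA-binding factor of the system and holds CArG boxes in its own promoter window. It stood at 20.7, 22.2 and 22.8 FPKM in Hep-G2 with siC and 8.22, 8.04 and 9.19 with siI1. Levels in BE(2)-C were 20.02, 19.3 and 18.6 FPKM with siC and 11.9, 13.05 and 11.1 with siI1. In both lines every siI1 library was below every siC library, and the drop was deeper in Hep-G2. The log2 fold changes were -1.36 ± 0.072 (SE) in Hep-G2 (adjusted p = 2.37e-05) and -0.68 ± 0.068 (SE) in BE(2)-C (0.000756), and they differed by 0.68 ± 0.10 (SE) (0.000343). MKL1 (ENSG00000196588), the coactivator also called MRTF-A, stood at 7.31, 6.92 and 7.46 FPKM with siC and 5.34, 4.899 and 4.92 with siI1 in Hep-G2. Within BE(2)-C it reached 10.9, 10.2 and 11.05 FPKM and 8.45, 8.38 and 7.89. Again the groups did not overlap in either line, with log2 fold changes of -0.51 ± 0.071 (SE) (adjusted p = 0.00128) and -0.38 ± 0.058 (SE) (0.00379). MKL2 (ENSG00000186260), or MRTF-B, stood at 4.15, 3.001 and 3.81 FPKM with siC and 4.33, 2.995 and 2.99 with siI1 in Hep-G2, and these groups overlapped. Its siC libraries in BE(2)-C held 1.53, 1.44 and 1.497 FPKM and its siI1 libraries 1.77, 1.75 and 1.71. The BE(2)-C groups lay apart with siI1 on the higher side, and the log2 fold change of 0.21 was not called by limma (adjusted p = 0.174) and was called by voom on recovered reads (0.0425), within a range of 0.0425 to 0.316 over the alternatives. In Hep-G2 MKL2 changed by -0.10 (adjusted p = 0.709). Its difference between the lines (0.31, adjusted p = 0.282) was called without Hep-G2 siI1 replicate 1 (0.48, 0.0395; range over alternatives 0.0395 to 0.497).

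**Figure D2:**
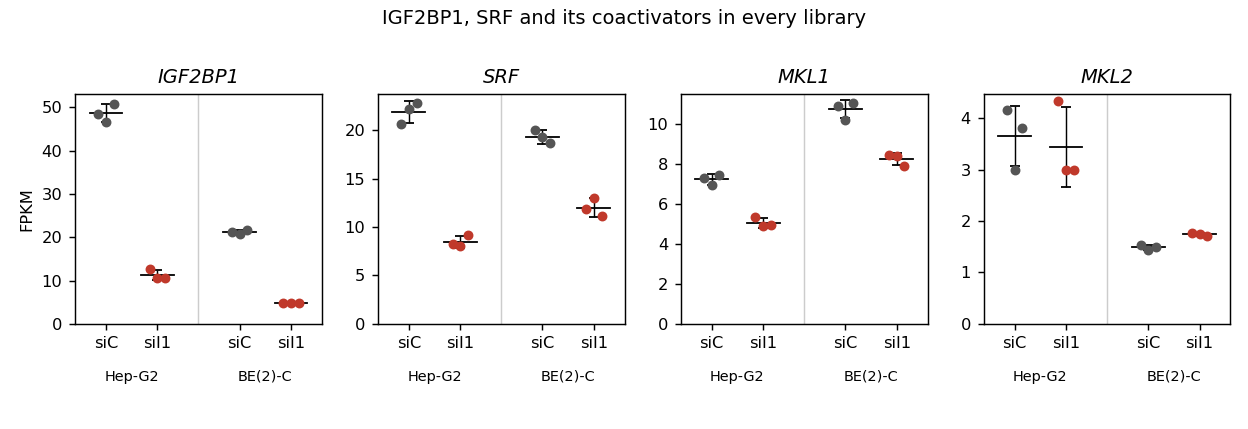
FPKM of IGF2BP1, SRF, MKL1 and MKL2 in each library of Hep-G2 and BE(2)-C with siC or siI1 (points), with the mean (line) and SD (bars) of 3 libraries. SRF averages 21.9 FPKM with siC and 8.48 with siI1 in Hep-G2, while BE(2)-C averages 19.3 and 12.01.

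Actins. The cytoplasmic actins ACTB and ACTG1, which form most filaments of non-muscle cells, were the most abundant members per length, with ACTB at a mean of 967 ± 66.5 FPKM (SD, n = 3) in Hep-G2 siC libraries and 1165 ± 102 in BE(2)-C siC libraries, in tables that were normalized separately. ACTB was lower with siI1 in BE(2)-C (-0.40, adjusted p = 0.0104) and ACTG1 higher (0.23, 0.0384), and neither was called in Hep-G2 (-0.045 and 0.21). The ACTG1 call in BE(2)-C was lost without siC replicate 2 (adjusted p = 0.11), siC replicate 3 (0.0951), or siI1 replicate 1 (0.0998), 2 (0.098) or 3 (0.0873), with no filter (0.103) and with no mean-variance trend (0.0814), in a range of 0.000108 to 0.11. In Hep-G2 ACTG1 was called higher without siI1 replicate 1 (0.0239) and by voom (0.0253), in a range of 0.0239 to 0.537. The ACTB difference between lines (-0.35, adjusted p = 0.0567) was called without Hep-G2 siC replicate 2 (0.0441) or siI1 replicate 1 (0.0105), with a filter of FPKM at least 1 (0.0332), with median centring (0.0437), with a replicate block (0.0169) and by separate fits (0.0228), in a range of 0.0105 to 0.131.

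ACTA2 (ENSG00000107796, chr10:88935074-88991339, minus strand), the smooth muscle alpha actin that also marks contractile fibroblasts, moved the most among the actins. In Hep-G2 it stood at 26.6, 26.9 and 26.4 FPKM with siC and 85.6, 105 and 109.7 with siI1. BE(2)-C libraries held 1.404, 1.31 and 1.49 FPKM with siC and 0.717, 0.998 and 0.508 with siI1, on 21 to 62 reads per library. Every Hep-G2 siI1 library lay above every siC library, and every BE(2)-C siI1 library below. ACTA2 rose 3.76-fold in Hep-G2 (1.90 ± 0.094 (SE), adjusted p = 1.88e-05) and was lower in BE(2)-C (-0.88 ± 0.23 (SE), 0.0292), a difference of -2.77 ± 0.24 (SE) (7.05e-06). The BE(2)-C call was lost without siC replicate 1 (adjusted p = 0.072), 2 (0.059) or 3 (0.0777), without siI1 replicate 1 (0.0693) or 3 (0.0609), with no filter (0.0577) and with a replicate block (0.0585), in a range of 0.00204 to 0.0777. ACTA2 shares exon bases with genes on the other strand, ACTA2-AS1 (0.1495 FPKM with siC and 0.506 with siI1 in Hep-G2) and FAS (9.61 and 9.97). Other smooth muscle genes differed in level in Hep-G2, where TAGLN averaged 43.2 FPKM with siC and MYL9 23.8, while MYOCD reached at most 0.0083 FPKM, MYH11 at most 0.018 and DES, on 0 to 4 reads, at most 0.0275 with siC and 0.111 with siI1.

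Crosslinkers and adhesion proteins. In Hep-G2 3 of 6 tested genes were lower and 1 higher, and in BE(2)-C 3 of 7 were lower and 1 higher, a higher count that was 0 without siI1 replicate 1 or 2. FLNA (ENSG00000196924), a filamin that crosslinks filaments into networks and holds a CArG box in its window, was at 86.3, 74.5 and 81.7 FPKM with siC and 54.9, 54.8 and 53.6 with siI1 in BE(2)-C. The groups were apart there, with a log2 fold change of -0.57 ± 0.059 (SE) (adjusted p = 0.000874), close to that in Hep-G2 (-0.53, 0.000123), and the difference of -0.034 was not called (0.745). ACTN1 (ENSG00000072110), an alpha-actinin that bundles stress fibres, was at 29.96, 30.3 and 31.05 FPKM with siC and 14.5, 15.1 and 15.4 with siI1 in Hep-G2. All siI1 libraries lay near the same level, 2.03-fold below the siC mean (-1.02 ± 0.049 (SE), adjusted p = 1.68e-05), whereas ACTN1 was not called in BE(2)-C (-0.072, 0.441), a difference of 0.95 (5.74e-06). VCL, the adhesion protein vinculin, was lower in Hep-G2 (-0.63, 0.00133) and not called in BE(2)-C (0.14, 0.204), a difference of 0.77 (0.000386). The study used vinculin as a loading control for protein blots of another cell line, which these RNA values do not cover. AP3M1, which overlaps VCL on the other strand, averaged 17.2 FPKM with siC and 10.8 with siI1 in Hep-G2. ZYX (ENSG00000159840), the adhesion protein zyxin, was at 44.8, 45.4 and 49.4 FPKM with siC and 60.5, 68.5 and 67.8 with siI1 in Hep-G2. Its BE(2)-C levels were 41.7, 34.03 and 36.002 FPKM with siC and 27.96, 24.5 and 26.9 with siI1. The groups lay apart in both lines and in opposite order, higher with siI1 in Hep-G2 (0.49 ± 0.069 (SE), 0.00134) and lower in BE(2)-C (-0.49 ± 0.086 (SE), 0.00665), a difference of -0.98 ± 0.12 (SE) (6.81e-05). EPHA1, on the other strand over 2.51% of ZYX exon bases, averaged 1.68 FPKM with siC and 5.39 with siI1 in Hep-G2.

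ACTN4, the second non-muscle alpha-actinin, was not called in Hep-G2 (-0.11, adjusted p = 0.119) and was called lower in BE(2)-C (-0.13, 0.0342). That BE(2)-C call was lost without siC replicate 2 (0.0813) or 3 (0.0904), without siI1 replicate 1 (0.0959), 2 (0.106) or 3 (0.12), with no mean-variance trend (0.15), with median centring (0.0689), with equal sums of FPKM (0.0868) and with a replicate block (0.0563), in a range of 0.0309 to 0.15. FLNC, a filamin of muscle, was not tested in Hep-G2, where its highest library had 0.102 FPKM, and was higher in BE(2)-C (0.37, 0.0167). The FLNC call was lost without siI1 replicate 1 (0.053) or 2 (0.0534) and with no mean-variance trend (0.0506), in a range of 2.76e-05 to 0.0534. TLN1, talin, which links integrins to filaments, was called in neither line (-0.0025 and -0.14). TLN1 was called lower without BE(2)-C siC replicate 2 (0.0212), in a range of 0.0212 to 0.314, and its difference between the lines (-0.13, 0.196) was called without that library (-0.20, 0.0234), in a range of 0.0234 to 0.689.

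Non-muscle myosin II. The motor pulls on filaments with heavy chains MYH9 and MYH10 and light chains of the MYL genes. In Hep-G2 2 of 6 were lower and 2 higher (33.3% each, beside 30.5% and 25.3% of protein-coding genes), and in BE(2)-C 3 of 6 were lower. The lower count in Hep-G2 was 1 without siC replicate 1, 2 or 3 or siI1 replicate 2. No myosin gene was called higher by limma in BE(2)-C, and 0 of these genes rose at unadjusted p under 0.05 or by voom. MYH9 (ENSG00000100345) stood at 104, 103 and 107 FPKM with siC and 57.4, 52.9 and 54.8 with siI1 in Hep-G2. Levels in BE(2)-C were 43.1, 37.7 and 40.1 FPKM and 20.1, 18.8 and 18.4. In each line the siI1 libraries held about the same fraction of the siC mean, 52.6% in Hep-G2 and 47.5% in BE(2)-C, with log2 fold changes of -0.93 ± 0.052 (SE) (adjusted p = 2.68e-05) and -1.07 ± 0.062 (SE) (0.000162) and a difference of -0.14 that was not called (0.177). MYH10, by contrast, was higher in Hep-G2 (0.46, 0.00183) and not called in BE(2)-C (-0.072, 0.409), a difference of -0.53 (0.000835). MYL6 (ENSG00000092841), the essential light chain, was at 110.2, 133 and 119.7 FPKM with siC and 148, 196 and 204 with siI1 in Hep-G2. Within BE(2)-C it reached 135, 137 and 119 FPKM and 94.1, 90.2 and 91.3. Its groups lay apart in both lines, higher with siI1 in Hep-G2 (0.58 ± 0.13 (SE), 0.0118) and lower in BE(2)-C (-0.50 ± 0.062 (SE), 0.00167), a difference of -1.09 ± 0.16 (SE) (0.000282). MYL6B, which overlaps MYL6 on the same strand, averaged 12.7 FPKM with siC and 21.2 with siI1 in Hep-G2, while its BE(2)-C means were 32.5 and 35.5.

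Among the regulatory light chains, MYL12A was lower in both lines (-0.23, adjusted p = 0.0352, in Hep-G2 and -0.40, 0.00398, in BE(2)-C). Its Hep-G2 call was lost without siC replicate 1 (0.0831), 2 (0.109) or 3 (0.0678), without siI1 replicate 2 (0.0602), with no filter (0.0603), with no mean-variance trend (0.0884) and with median centring (0.0657), in a range of 0.000451 to 0.109. Its difference between lines (-0.17, 0.188) was called without Hep-G2 siI1 replicate 1 (-0.24, 0.0362), in a range of 0.0362 to 0.866. MYL12B was called in neither line (0.13 and -0.15). Without siI1 replicate 1 of the line tested, MYL12B was called higher in Hep-G2 (0.0262, in a range of 0.0262 to 0.608) and lower in BE(2)-C (0.0372, in a range of 0.0372 to 0.307). The MYL12B difference (-0.28, 0.0716) was called without Hep-G2 siC replicate 2 (0.0491), Hep-G2 siI1 replicate 1 (0.00676) or BE(2)-C siI1 replicate 1 (0.0382), with a replicate block (0.0251) and by separate fits (0.0304), in a range of 0.00676 to 0.347. MYL9, the light chain of smooth muscle, was at a mean of 23.8 FPKM with siC in Hep-G2 and on 0 to 11 reads per library in BE(2)-C, and was not called in either (-0.18 and 0.54). Its difference (0.73, 0.287) was called without BE(2)-C siI1 replicate 1 (adjusted p = 0.0472), in a range of 0.0472 to 0.526.

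Filament-binding proteins. In Hep-G2 4 of 10 were lower and 1 higher, and 3 and 2 in BE(2)-C. The higher count was 2 in Hep-G2 without siI1 replicate 1, and 1 in BE(2)-C without siI1 replicate 1 or 3. Among the tropomyosins, which lie along filaments and govern access to them, TPM3 was lower in both lines (-0.79, adjusted p = 3.59e-05, in Hep-G2 and -0.31, 0.00186, in BE(2)-C), with a difference of 0.47 (8.62e-05). TPM1 was lower in Hep-G2 (-0.43, 0.00146) and not called in BE(2)-C (-0.11, 0.145), with a difference of 0.32 (0.0068). TPM4, with a CArG box in its window, was lower in Hep-G2 (-0.18, 0.0159) and not called in BE(2)-C (0.08, 0.182), with a difference of 0.26 (0.00308). The TPM4 call was lost without Hep-G2 siC replicate 2 (0.0615) or 3 (0.0747), without siI1 replicate 2 (0.0626) or 3 (0.0529) and with no mean-variance trend (0.0728), in a range of 0.00201 to 0.0747. TPM2 and the calmodulin-binding CALD1 were called in neither line, at -0.18 (Hep-G2) and -0.03 (BE(2)-C) for TPM2 and 0.10 and 0.18 for CALD1, although voom called CALD1 higher in BE(2)-C (0.0493, in a range of 0.0493 to 0.383).

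The calponins, which bind filaments and restrain myosin, differed among themselves. CNN3 was higher in both lines (0.74, adjusted p = 5.89e-05, in Hep-G2 and 0.21, 0.0148, in BE(2)-C), with a difference of -0.52 (9.66e-05). For CNN3 the BE(2)-C call was lost without siI1 replicate 1 (0.0529) or 3 (0.0629) and with no mean-variance trend (0.0682), in a range of 0.00443 to 0.0682. CNN2 (ENSG00000064666), with a CArG box in its window, was at 4.26, 3.12 and 3.98 FPKM with siC and 1.77, 1.42 and 1.6002 with siI1 in BE(2)-C. Groups lay apart, 2.37-fold lower with siI1 (-1.19 ± 0.15 (SE), 0.00162), while the Hep-G2 value of 0.093 was not called (0.39), a difference of -1.28 (0.000111). In Hep-G2 CNN2 was called higher without siI1 replicate 1 (0.0462), in a range of 0.0462 to 0.853. CNN1, of smooth muscle, was on 8 to 21 reads per library in Hep-G2 and 44 to 82 in BE(2)-C and was not called in either (-0.081 and -0.12).

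The transgelins are small calponin relatives. TAGLN2 (ENSG00000158710) was at 128, 111 and 116 FPKM with siC and 47.8, 45.9 and 43.5 with siI1 in BE(2)-C. Every BE(2)-C siI1 library was under every siC library, 2.59-fold lower on the mean (-1.37 ± 0.066 (SE), adjusted p = 0.000112), and Hep-G2 showed -0.024 (0.869), a difference of -1.35 ± 0.13 (SE) (1.16e-05). TAGLN (ENSG00000149591, chr11:117199370-117207464, plus strand), a smooth muscle protein, was at 42.03, 45.1 and 42.3 FPKM with siC and 26.5, 34.3 and 33.99 with siI1 in Hep-G2. BE(2)-C libraries held 0.391, 0.617 and 0.529 FPKM with siC and 1.32, 1.07 and 1.29 with siI1, on 22 to 80 reads. The groups did not overlap in either line and their order was opposite, lower with siI1 in Hep-G2 (-0.46 ± 0.10 (SE), 0.0113) and higher in BE(2)-C (1.12 ± 0.20 (SE), 0.00696), a difference of 1.58 ± 0.20 (SE) (0.000104). Of the 150-base stretches of TAGLN, 64.6% also lie in ENSG00000280143, an overlapping gene on the same strand at 0.825 FPKM with siC and 0.449 with siI1 in Hep-G2 (BE(2)-C means 0.711 and 0.7003). PCSK7, on the other strand over 34.1% of TAGLN exon bases, averaged 2.66 FPKM with siC and 2.32 with siI1 in Hep-G2, and its BE(2)-C means of 2.999 and 2.86 exceeded those of TAGLN (0.513 and 1.22), so the TAGLN values are uncertain.

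LIM domain adaptors. These proteins dock signalling and scaffold proteins on filaments and Z-discs. All 4 tested in Hep-G2 were lower, and none was higher by limma, at unadjusted p under 0.05 or by voom (0 in each), while in BE(2)-C 1 of 5 was lower and 2 were higher. PDLIM5 (ENSG00000163110) was at 17.8, 16.5 and 17.2 FPKM with siC and 6.66, 5.44 and 5.05 with siI1 in Hep-G2. The groups lay far apart, 3.001-fold lower with siI1 (-1.58 ± 0.11 (SE), adjusted p = 5.42e-05), and BE(2)-C showed 0.028 (0.746), a difference of 1.61 ± 0.12 (SE) (2.78e-06). FHL2 (ENSG00000115641), a cofactor of SRF with a CArG box in its window, was at 8.38, 10.1 and 9.73 FPKM with siC and 3.54, 4.72 and 4.8996 with siI1 in Hep-G2. It was 2.14-fold lower there with no overlap (-1.09 ± 0.14 (SE), 0.000877), and the BE(2)-C value of 0.27 missed the threshold (0.0529), a difference of 1.37 (8.91e-05). FHL2 was called higher without BE(2)-C siC replicate 3 (0.0391), with a filter of FPKM at least 1 (0.0344), with median centring (0.0391) and by voom (0.0206), in a range of 0.0206 to 0.156. PDLIM7 (ENSG00000196923) was at 16.3, 13.98 and 13.3 FPKM with siC and 9.204, 8.395 and 10.8 with siI1 in BE(2)-C. Its groups lay apart (-0.62 ± 0.11 (SE), 0.00697), and it was lower in Hep-G2 too (-0.72, 0.0026), with a difference of 0.11 that was not called (0.666).

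LIMA1 (ENSG00000050405), or EPLIN, which stabilizes filaments, was at 10.97, 10.3 and 11.2 FPKM with siC and 6.67, 5.81 and 5.66 with siI1 in Hep-G2. Its BE(2)-C levels were 14.8, 17.8 and 16.4 FPKM with siC and 19.97, 20.96 and 21.1 with siI1. Groups lay apart in both lines and in opposite order, lower with siI1 in Hep-G2 (-0.83 ± 0.082 (SE), adjusted p = 0.000273) and higher in BE(2)-C (0.34 ± 0.072 (SE), 0.0133), a difference of 1.17 ± 0.11 (SE) (1.29e-05). FHL1, found mostly in muscle, was higher in BE(2)-C (0.24, 0.00676) and not tested in Hep-G2, where it had 0 to 10 reads per library.

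**Figure D3:**
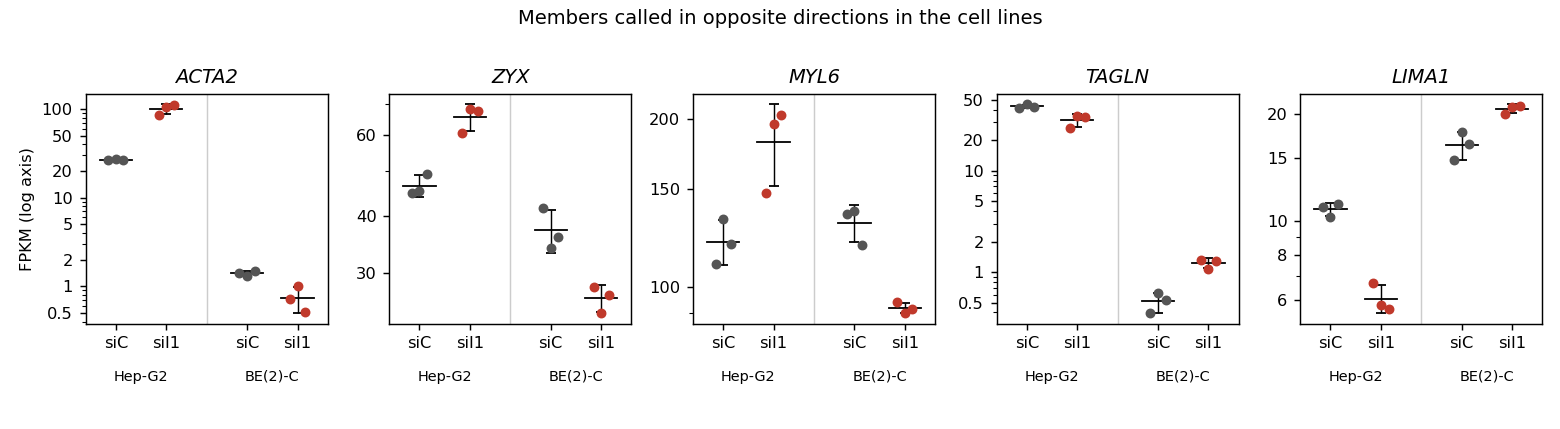
FPKM on a log axis of the 5 members called in opposite directions (ACTA2, ZYX, MYL6, TAGLN and LIMA1) in each library of Hep-G2 and BE(2)-C with siC or siI1, with means (lines) and SD (bars) of 3 libraries. ACTA2 averages 26.6 FPKM with siC and 100.01 with siI1 in Hep-G2, while BE(2)-C averages 1.402 and 0.741.

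Filament turnover. In Hep-G2 3 of 8 were lower and 1 higher, and in BE(2)-C 4 of 8 were lower. Without Hep-G2 siI1 replicate 1 the higher count was 2, and without BE(2)-C siI1 replicate 2 or 3 the lower count was 2. There limma called 0 of the 8 higher, against 1 at unadjusted p under 0.05 and 1 by voom, each time CFL2. CAP1 (ENSG00000131236), which recycles actin monomers with cofilin, was at 109, 117 and 110.5 FPKM with siC and 50.1, 53.98 and 52.9 with siI1 in Hep-G2. The siI1 libraries were 2.14-fold lower without overlap (-1.10 ± 0.054 (SE), adjusted p = 1.83e-05), and CAP1 was lower in BE(2)-C too (-0.42, 0.00076), with a difference of 0.68 (1.33e-05). LIMK1 (ENSG00000106683), a kinase that switches cofilin off, was at 7.29, 8.04 and 7.56 FPKM with siC and 3.89, 4.35 and 4.19 with siI1 in Hep-G2. Levels in BE(2)-C were 8.901, 7.74 and 8.26 FPKM and 5.22, 5.299 and 5.24. Groups lay apart in both lines, with log2 fold changes of -0.87 ± 0.077 (SE) (0.000177) and -0.65 ± 0.068 (SE) (0.000884), and the difference of 0.22 was not called (0.102). Its relative LIMK2 was lower in Hep-G2 (-0.82, 9.93e-05) and not called in BE(2)-C (0.0044, 0.982), a difference of 0.82 (0.000832). The muscle-type cofilin CFL2, a severing protein, was higher in Hep-G2 (0.50, 0.000249), and its BE(2)-C value of 0.21 (0.0524) was called with a filter of FPKM at least 1 (0.0399), with median centring (0.0332) and by voom (0.0145), in a range of 0.0145 to 0.143. The CFL2 difference (-0.30, 0.0106) was lost with equal sums of FPKM (0.425), in a range of 0.000793 to 0.425.

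CFL1, the main cofilin of non-muscle cells, and PFN1, a profilin that feeds monomers to growing filaments, were called lower in BE(2)-C (-0.18, adjusted p = 0.0468, and -0.27, 0.0345) and not in Hep-G2 (-0.16 and -0.17). The CFL1 call was lost without siC replicate 1 (0.0629) or 2 (0.0693), without siI1 replicate 1 (0.0906), 2 (0.114) or 3 (0.147), with no filter (0.0908), with no mean-variance trend (0.122) and with median centring (0.0765), in a range of 0.00195 to 0.147. The PFN1 call was lost without siI1 replicate 2 (0.105) or 3 (0.11), with no filter (0.071) and with no mean-variance trend (0.0864), in a range of 0.000181 to 0.11. The differences between lines for CFL1 (-0.027, 0.87) and PFN1 (-0.10, 0.622) were not called. PFN2, the profilin of neurons, was called in neither line (-0.041 and -0.082). WDR1, which helps cofilin take filaments apart, was not called in either line (0.15 in Hep-G2 and -0.15 in BE(2)-C). In Hep-G2 it was called higher without siI1 replicate 1 (0.00942) and with median centring (0.0397), in a range of 0.00942 to 0.736. The WDR1 effects differed between the lines (-0.30, 0.0107), and that call was lost with equal sums of FPKM (0.136), in a range of 0.000738 to 0.136.

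Genes that respond to SRF and YAP. In Hep-G2 3 of 5 were lower, and in BE(2)-C 2 of the 3 tested, AKAP12 and AMOTL2. That count was 1 without any single BE(2)-C library (siC or siI1 replicate 1, 2 or 3), and AMOTL2, having passed the filter only through siC, lends it no support. None was called higher by limma in either line, with 0 at unadjusted p under 0.05 and 0 by voom. AKAP12 (ENSG00000131016, chr6:151239967-151358559, plus strand), a scaffold for protein kinases at the cell cortex with a CArG box in its window, changed the most of all members in Hep-G2. It was at 57.7, 58.1 and 63.1 FPKM with siC and 3.82, 2.83 and 3.03 with siI1 in Hep-G2, and at 26.7, 28.4 and 30.7 and 19.5, 21.4 and 20.7 in BE(2)-C. All siI1 libraries lay below the siC libraries in both lines, 18.5-fold on the mean in Hep-G2 and 1.395-fold in BE(2)-C. The log2 fold changes were -4.18 ± 0.11 (SE) (adjusted p = 2.79e-06) and -0.48 ± 0.065 (SE) (0.00246), with a difference of 3.70 ± 0.14 (SE) (2.91e-08). CTGF and ANKRD1, a secreted matricellular protein and a nuclear ankyrin repeat protein whose windows repeat GGAATG, were lower in Hep-G2 (-0.65, 0.000229, and -0.58, 0.000155). ANKRD1 averaged 124 FPKM with siC in Hep-G2 and had at most 1 read in any BE(2)-C library, and CTGF had at most 5, so neither was tested in BE(2)-C. CYR61, a relative of CTGF, was called in neither line (-0.21, 0.0654, in Hep-G2 and 0.0053, 0.995, in BE(2)-C). In Hep-G2 CYR61 was called lower without siI1 replicate 2 (0.016), in a range of 0.00732 to 0.179.

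AMOTL2, an angiomotin relative that binds YAP, was not called in Hep-G2 (-0.13, adjusted p = 0.238) and was called lower in BE(2)-C (-1.16, 0.0385), where it stood on 1 to 19 reads per library. Its BE(2)-C libraries held 0.175, 0.248 and 0.203 FPKM with siC and 0.0108, 0.0709 and 0.0361 with siI1. AMOTL2 thus passed the filter through siC alone, which left only a lower call open to it, and with no filter it was also called lower (adjusted p = 0.0336). The call was lost without siI1 replicate 1 (0.107), 2 (0.061) or 3 (0.101), with a pseudocount of 0.01 (0.0636) and with a replicate block (0.0684), in a range of 0.000559 to 0.107. Without siC replicate 1, 2 or 3 it did not pass the filter and was not tested. The AMOTL2 difference between lines (-1.04, 0.00619) was lost with a pseudocount of 1 (-0.11, 0.379), in a range of 0.00197 to 0.379, and shares the same limit.

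Comparing the lines, the siRNA effect differed for 23 of the 43 members tested in both, by the interaction of siRNA and cell line, beside 40.2% of 15362 genes tested in both. Protein-coding genes, which all members are, were not counted apart for this test. Each line received its own siRNA concentration, so in this test cell line and concentration cannot be told apart. Without genes that passed the filter through 1 group only, it differed for 22 of 42 members and again 40.2% of 15078 genes. The largest differences were those of AKAP12 (3.70), ACTA2 (-2.77), PDLIM5 (1.61) and TAGLN (1.58), each BE(2)-C minus Hep-G2. The place of TAGLN is uncertain, as are its values, and its difference ran from 1.00 to 1.77 over the alternatives. Among the 10 members lower in both lines, the drop was deeper in Hep-G2 by this test for SRF, TPM3, CAP1 and AKAP12, and the difference was not called for MKL1, FLNA, MYH9, MYL12A, PDLIM7 and LIMK1. With equal sums of FPKM the differences of MKL1 (0.0354) and LIMK1 (0.00378), and also that of ACTG1 (0.0342), were called, in ranges of 0.0354 to 0.422, 0.00378 to 0.208 and 0.0342 to 0.998.

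**Figure D4:**
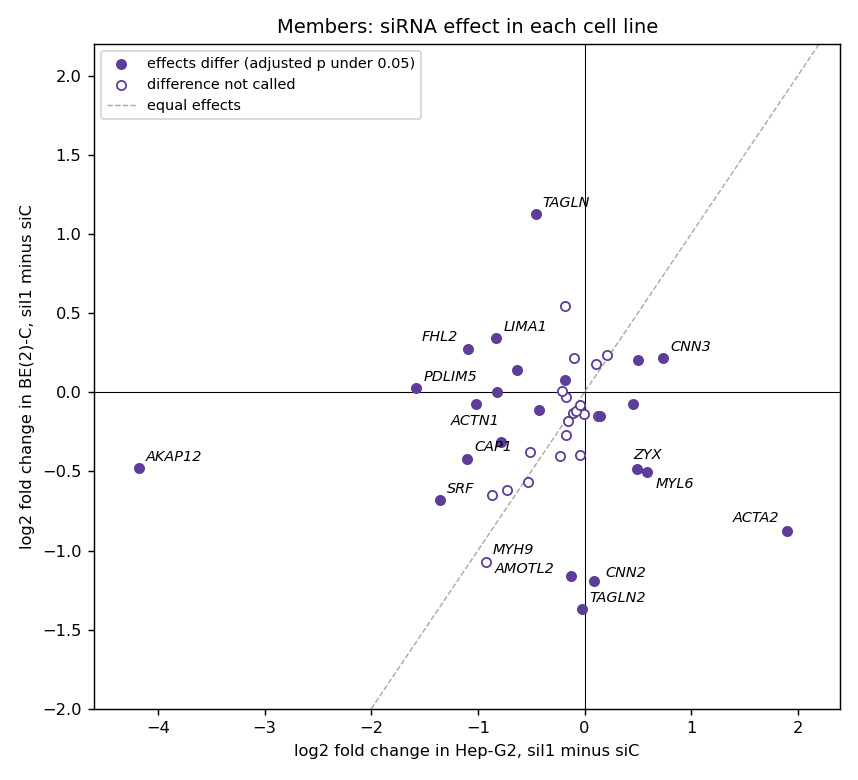
Log2 fold change (siI1 minus siC) of the 43 members tested in both lines, Hep-G2 on the x axis and BE(2)-C on the y axis, with filled points where the effects differ by the interaction and the dashed line at equal effects. Filled points number 23, with AKAP12 far to the left and ACTA2 at the lower right.

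Some markers of cell states also changed, in both directions. In Hep-G2 the summed FPKM of the 8 hepatocyte-lineage markers stood at 7633, 7588 and 7563 in siC libraries and at 12096, 13618 and 13787 in siI1 libraries, with 2 markers lower and 5 higher, led by APOA1 (1.70). The HNF4A call among these was lost without Hep-G2 siC replicate 1 (adjusted p = 0.0546); the range without 1 library was 0.00615 to 0.0546. Of the 7 neuroblastoma markers 1 was tested in Hep-G2 and limma called 0 (0 at unadjusted p under 0.05, 0 by voom), the sums being 0.0699, 0.216 and 0.0663 FPKM with siC and 0.269, 0.167 and 0.158 with siI1. Of the neuroblastoma markers in BE(2)-C, 3 were lower, led by HAND2 (-0.73), and 1 higher, at summed levels of 2793, 2611 and 2678 FPKM with siC and 2684, 2640.3 and 2733 with siI1. None of the 8 hepatocyte-lineage markers was tested in BE(2)-C, where APOA1 was the most abundant at a mean of 0.0852 FPKM and the sums were 0.112, 0.187 and 0.0146 FPKM with siC and 0.0044, 0.237 and 0.120 with siI1. Beside the rise of ACTA2 in Hep-G2, the 9 fibroblast and smooth muscle markers summed to 0.922, 0.996 and 1.17 FPKM with siC and 0.661, 2.17 and 0.909 with siI1, 7 averaged under 0.1 FPKM and the most abundant, PDGFRB, averaged 0.530. Of 3 tested limma called 0 (0 at unadjusted p under 0.05, 0 by voom). The sum of 2.17 belongs to siI1 replicate 2, which also had VIM at 2.33 FPKM against 0.344 and 0.102 in the other siI1 libraries, and without that library the ACTA2 log2 fold change was 1.86.

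The BE(2)-C sums of fibroblast and smooth muscle markers were 29.2, 25.2 and 29.5 FPKM with siC and 36.6, 38.1 and 35.9 with siI1. PDGFRB, at a mean of 16.0 FPKM, was the most abundant, 3 markers averaged under 0.1 FPKM (MYOCD, MYH11 and DES), and 2 of 6 tested were higher, LUM by 1.08 and DCN by 0.66. None was lower by limma, at unadjusted p under 0.05 or by voom (0 in each), and 1 was lower without siC replicate 2. The 7 mesenchymal neuroblastoma markers summed to 112, 117 and 110.0 FPKM with siC and 127, 124 and 129 with siI1 in BE(2)-C, TWIST1 being the most abundant at a mean of 65.1 FPKM and 2 averaging under 0.1. Of 5 tested 3 were higher, FN1 by 2.08, SNAI2 by 0.40 and TWIST1 by 0.27. Of the members tested in BE(2)-C, 6 were higher (TAGLN, LIMA1, FLNC, FHL1, CNN3 and ACTG1), while 20 were lower, among them ACTA2, TAGLN2 and CNN2. The TAGLN values are uncertain, and the calls of FLNC, CNN3 and ACTG1 were lost under some alternatives. The SNAI2 call was lost without siI1 replicate 3 (adjusted p = 0.0609). In Hep-G2 that list summed to 773, 670 and 753 FPKM with siC and 460, 372 and 381 with siI1, with FN1 at a mean of 551, 2 of 7 averaging under 0.1, and 3 of 5 tested lower, FOSL1 by -2.33, FN1 by -0.85 and FOSL2 by -0.60. The part of these shifts in the members' values was not tested.

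The other genes of the pathway, 103 in 8 lists, gave a wider view of the same machinery. In Hep-G2 40 of 92 tested were lower (43.5%) and 13 higher (14.1%), and of 83 tested in BE(2)-C 16 fell (19.3%) and 11 rose (13.3%). Protein-coding genes had shares of 30.5% lower and 25.3% higher for Hep-G2 and of 19.9% and 15.5% for BE(2)-C, so the BE(2)-C shares of these lists are near those of genes at large. The lower BE(2)-C count fell to 10 without siI1 replicate 2, and the higher count to 7 without siI1 replicate 2 and 6 without siI1 replicate 3. The SRF partner list, of cofactors and of transcription factors that bind beside SRF, had 3 of 4 tested lower in Hep-G2, ELK3 by -2.12, ELK4 by -1.54 and ELK1 by -0.51. None was higher there by limma or at unadjusted p under 0.05 (0 in each), against 1 by voom, SCAI (0.44 and adjusted p = 0.107 by limma), named after its value was seen. Limma called 0 of 4 in BE(2)-C (0 at unadjusted p under 0.05, 0 by voom). Other SRF targets, which comprise immediate early, structural and adhesion genes, were lower in 9 of 15 tested in Hep-G2 and in 5 of 13 in BE(2)-C. One of the 9, EGR3, passed the filter only through siC (0 FPKM in every siI1 library) and could only come out lower. With no filter EGR3 was also called lower (adjusted p = 0.00148), and without it 8 of 14 were lower. None of them was higher by limma, at unadjusted p under 0.05 or by voom, in either line (0 in each). EGR1, a zinc finger factor, was at 9.59, 11.1 and 10.2 FPKM with siC and 0.683, 0.744 and 0.6198 with siI1 in Hep-G2 (-3.73, adjusted p = 3.33e-06), and 22.2, 18.9 and 17.7 with siC and 10.3, 9.09 and 7.504 with siI1 in BE(2)-C (-1.12, 0.00135). The groups of EGR1 lay apart in both lines, and IER2 fell in BE(2)-C (-0.84). The BE(2)-C count of other SRF targets was 3 without siC replicate 1 or 2 and without siI1 replicate 2 or 3.

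Of the formins, which nucleate and elongate unbranched filaments, Hep-G2 had 5 lower and 1 higher of 10 tested, and BE(2)-C 5 lower and 1 higher of 9. FMNL2 (-1.21) and DIAPH1 (-0.98) led in Hep-G2 and FHOD1 (-1.49) in BE(2)-C. DIAPH3, lower in both lines, belongs to the study's own list of genes lowered in all its lines and is not independent evidence. The formin called higher in BE(2)-C, FHOD3 (0.46), was chosen after its value was seen, and no formin was called higher (0) without siC replicate 1, 2 or 3 or siI1 replicate 2 or 3. The Arp2/3 complex, which nucleates branched filaments, had 3 of 9 genes lower and 2 higher in Hep-G2, with ACTR2 at -0.89, ACTR3 at -0.68 and ARPC5 at 0.87. The higher count there was 1 without siC replicate 1 or 3 or siI1 replicate 2 or 3. Limma called 0 of its 9 genes in BE(2)-C, against 2 lower and 0 higher at unadjusted p under 0.05 and 0 by voom. Capping and severing proteins were lower in 2 and higher in 4 of 13 in Hep-G2, and likewise lower in 2 and higher in 4 of 12 in BE(2)-C, with gelsolin (GSN) at 1.2 and SVIL at -1.09 in Hep-G2 and SSH3 at -1.48 in BE(2)-C.

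Other focal adhesion proteins were lower in 5 and higher in 2 of 12 tested in Hep-G2, with PALLD at -1.45 and VASP at -1.17. Of 11 tested in BE(2)-C, 3 were lower, led by ILK (-0.74), and the lower count was 1 without siI1 replicate 2. None was called higher there by limma (0), against 1 at unadjusted p under 0.05 and 1 by voom. In the YAP and Hippo list Hep-G2 had 8 lower and 1 higher of 18 tested, and BE(2)-C 1 lower and 2 higher of 15. The lower BE(2)-C gene, TEAD4, passed the filter only through siC, so it could only come out lower, and was not called with no filter (adjusted p = 0.055). YAP1 itself stood at 54.8, 49.2 and 55.6 FPKM with siC and 12.2, 9.22 and 8.697 with siI1 in Hep-G2, apart in every library (-2.41, adjusted p = 2.46e-05), and reached at most 0.0337 FPKM in BE(2)-C, where it was not tested. The lower count in Hep-G2 was 5 without siC replicate 3 or siI1 replicate 2 or 3, and the higher count 0 without siC replicate 2 or 3 or siI1 replicate 1, 2 or 3. In BE(2)-C the lower count was 0 without siC replicate 1 or 2 or siI1 replicate 1, 2 or 3, and the higher count 1 without siI1 replicate 2 or 3. Other YAP targets were lower in 5 and higher in 3 of 11 in Hep-G2, with MYOF at -2.06 and AXL at -1.54, and higher in 4 of 10 in BE(2)-C. NT5E, a cell surface nucleotidase, fell in Hep-G2 (-1.45, 1.86e-05) and rose in BE(2)-C (1.00, 2e-04). The BE(2)-C higher count of that list was 2 without siC replicate 2 or siI1 replicate 1 or 3, and limma, unadjusted p under 0.05 and voom gave 0 lower, with 1 lower without siC replicate 1.

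**Figure D5:**
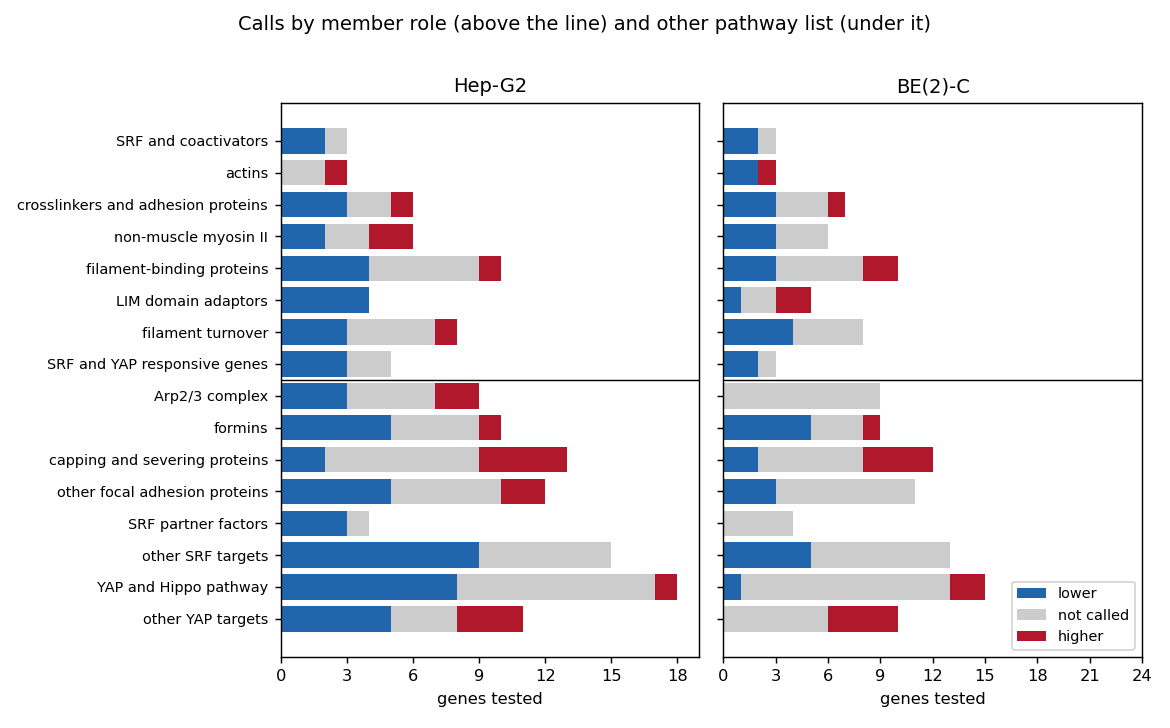
Number of tested genes lower, not called and higher (bar segments) by member role above the line and by other pathway list under it, for Hep-G2 and BE(2)-C. Other SRF targets have 9 of 15 lower in Hep-G2 and 5 of 13 in BE(2)-C.

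Some members share bases with other genes. Of all 47, 5 hold 150-base stretches found in another gene (TAGLN 64.6%, TPM3 2.26%, FLNC 1.30%, AMOTL2 0.805% and TPM4 0.688%) and 42 hold none, near matches not being searched. The strand setting of the authors' counting is not given. On bases shared with a gene on the other strand, a member's reads therefore cannot be told apart from those of that gene. This touches 20 of the 47 members (MKL1, ACTG1, ACTA2, ACTN4, FLNC, VCL, ZYX, MYH10, MYL6, MYL12A, MYL12B, TPM1, TPM4, CNN2, TAGLN, FHL2, CFL1, PFN1, PFN2 and CTGF), which share from 0.123% (MKL1) to 34.1% (TAGLN) of their exon bases with a single such gene. The share is over 10% for ACTA2, ACTN4, VCL, MYL6, TPM1, TAGLN, CFL1 and CTGF. With 3 libraries against 3, an exact permutation test of a single gene could not go below p = 0.1, so calls rest on limma's pooling of the spread over genes.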

How the data were processed

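RNA was measured in 12 libraries, 3 for each of the siC and siI1 groups in Hep-G2 and in BE(2)-C. According to the methods, the authors trimmed reads with cutadapt 1.14, aligned them with HISAT2 2.1.0, counted with featureCounts 1.5.3 and normalized with TMM in edgeR 3.30.3. The deposited tables, a separate file for each cell line, hold FPKM per library with gene lengths, and they were normalized separately. They also hold the authors' own fold changes, p-values and false discovery rates, which were not used. From the FPKM, log2(FPKM + 0.1) was fitted in limma 3.58.1 (R 4.3.3) for all genes that reached an FPKM of 0.1 in 3 or more of the 6 libraries of a table. The fits used a mean-variance trend, moderated errors, two-sided tests and p-values adjusted by Benjamini-Hochberg over every gene tested, with a threshold of 0.05. The difference between cell lines was the interaction over all 12 libraries. The script of the fit was tested on simulated data, which does not bear on single calls. Figures were drawn with Python 3.11.15 and matplotlib 3.10.9. The members and gene lists were chosen with earlier results of these data known. A further pathway list and 1 planned neuroblastoma marker are not reported here, and counts and sums leave them out. Values in every library are given for SRF, MKL1, MKL2 and IGF2BP1, for the 10 called members of each line with the largest change and a mean FPKM of at least 1 in either group, and for members called in opposite directions. AMOTL2 in BE(2)-C, the formins FHOD3 and DIAPH3 and SCAI were added after their values were seen. Of each pathway list, at most 3 called genes per line with the largest change are named. Alternatives changed the pseudocount, the filter, the trend, the scaling, the replicate block and the test, and left out each library in turn.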

Additional observations from a re-analysis of the deposited data

Results flagged for a closer look

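The siRNA effect differed between the cell lines for 23 of the 43 members tested in both, by limma's interaction test over all 12 libraries. Among all 15362 genes tested in both, 40.2% differed, and the share of protein-coding genes alone was not taken. Values are log2 fold changes in BE(2)-C minus those in Hep-G2. The siRNA concentration differed between the lines too, so these differences cannot be assigned to the cell line rather than to the concentration. Groups of 3 libraries were not tested for libraries far from the rest. Among SRF, crosslinkers and adhesion proteins, the difference was positive for SRF (0.68, adjusted p = 0.000343), ACTN1 (0.95, adjusted p = 5.74e-06) and VCL (0.77, adjusted p = 0.000386), and ZYX differed by -0.98 (adjusted p = 6.81e-05). ACTA2 differed by -2.77 (adjusted p = 7.05e-06). In myosin II the differences were those of MYH10 (-0.53, adjusted p = 0.000835) and MYL6 (-1.09, adjusted p = 0.000282). The tropomyosins differed in 3 cases, TPM1 (0.32, adjusted p = 0.0068), TPM3 (0.47, adjusted p = 8.62e-05) and TPM4 (0.26, adjusted p = 0.00308). Calponins and transgelins gave CNN2 (-1.28, adjusted p = 0.000111), CNN3 (-0.52, adjusted p = 9.66e-05), TAGLN (1.58, adjusted p = 0.000104) and TAGLN2 (-1.35, adjusted p = 1.16e-05). The LIM domain adaptors with a difference were FHL2 (1.37, adjusted p = 8.91e-05), PDLIM5 (1.61, adjusted p = 2.78e-06) and LIMA1 (1.17, adjusted p = 1.29e-05). In filament turnover they were CFL2 (-0.30, adjusted p = 0.0106), LIMK2 (0.82, adjusted p = 0.000832), CAP1 (0.68, adjusted p = 1.33e-05) and WDR1 (-0.30, adjusted p = 0.0107). With equal sums of FPKM the calls of CFL2 (-0.11, adjusted p = 0.425) and WDR1 (-0.11, adjusted p = 0.136) were lost. Of the genes that respond to SRF and YAP, AKAP12 (3.70, adjusted p = 2.91e-08) differed. AMOTL2 (-1.04, adjusted p = 0.00619) passed the filter in BE(2)-C only through its siC libraries, so only a lower call was open to it there. With no filter AMOTL2 was also called lower in BE(2)-C (adjusted p = 0.0336). The call of its difference between the lines was lost with a pseudocount of 1 (-0.11, adjusted p = 0.379, in a range of 0.00197 to 0.379 over the alternatives).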

How the results depend on the processing

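No member changed direction under any alternative in which it was called, and the members lower in Hep-G2, higher in Hep-G2, lower in BE(2)-C and different between the lines stayed within 1.5 times their counts under the planned settings other than leaving out a library. The members higher in BE(2)-C went from 6 to 3 with no mean-variance trend and to 10 by voom on recovered reads, and the cause was not tested. Leaving out each library in turn gave 19 to 21 members lower and 6 to 10 higher in Hep-G2, 15 to 17 lower and 3 to 6 higher in BE(2)-C, and 22 to 27 members with a difference between the lines. The replicate numbers do not pair the libraries: deviations of libraries with the same number correlated across genes by 0.0625, 0.0351 and -0.00619 in Hep-G2 and by 0.0225, -0.0102 and -0.00283 in BE(2)-C, and genes are not independent replicates. With the replicate number as a block, 21 members were lower and 6 higher in Hep-G2, 17 lower and 6 higher in BE(2)-C, and 25 differed between the lines, with the BE(2)-C calls of ACTA2, ACTN4 and AMOTL2 lost and the differences of ACTB and MYL12B gained. Scaling to equal sums of FPKM gave 29 members lower in Hep-G2. Depth limited CNN1 in both lines and TAGLN, ACTA2, AMOTL2, CYR61, MYL9 and TPM2 in BE(2)-C, where every library held under 100 reads for the gene, and CNN2 in BE(2)-C, where the lowest library held 73.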
